A study of Homo sapiens and Mus musculus with 9 samples.

Results

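CEBPB, SESN2, SLC7A1, SLC7A5 and ALDH18A1 are 5 genes placed in the ATF4 program of amino acid supply and stress adaptation, and they were followed here through ribosome footprints and small RNA peaks. They were picked by name: each human transcript that the small RNA peak lists pair with 1 of these symbols was a member. All 5 had recovered footprint reads, among 10078 transcripts analysed of 16984 in the footprint tables. They held 11 of 12171 small RNA peaks, and this rule of choice gave each member at least 1 peak in advance.

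All cells were wild-type HEK293, a human embryonic kidney line. Of 4 Ribo-seq libraries, trans1 and trans2 came from starved cells that had received a trans-RNA directed at ATF4 by transfection, 1 came from starved cells without it (starvation) and 1 from control cells. Both trans-RNA libraries carry 1 identical treatment label, which leaves unsaid whether they are repeats or different RNAs, and what the starved cells lacked is not stated. Small RNA came from cells labelled as control, as 1 cap library, made from decapped RNA per the labels' protocols, and 1 total library. Each group was 1 library, so there is no replicate error and no test of a difference, and bracketed ranges are exact 95% intervals of counting error only. The labels mention no molecular identifiers, so reads may be copies of 1 molecule and true errors wider. Recovered depth was 6045865 reads in trans1, 7407603 in trans2, 9251765 in starvation and 10500904 in control. Of 7 markers set for HEK293, 3 were paired with a symbol and only LIN28B was measured, at 34.1 to 56.8 reads per 1000000 recovered reads (CPM). None of the 6 liver or 3 blood markers was paired, so the cell type could be checked by LIN28B alone.

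ATF4 is a basic leucine zipper transcription factor whose translation increases when eIF2 is phosphorylated, for example when amino acids run short. It binds C/EBP-ATF response elements, composite sites that it often occupies with a C/EBP partner, and switches on genes that import and make amino acids. CEBPB is such a partner. SESN2 (sestrin 2) is a leucine-binding stress protein that restrains mTORC1. SLC7A1 (CAT-1) carries arginine and lysine into cells, and its mRNA is a long-known example of control by amino acid supply. SLC7A5 (LAT1) pairs with SLC3A2 to import large neutral amino acids such as leucine. ALDH18A1 (P5CS) makes pyrroline-5-carboxylate from glutamate, the first steps of proline synthesis.

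The files list the members as ENST00000303004 (CEBPB), ENST00000253063 (SESN2), ENST00000380752 (SLC7A1), ENST00000261622 (SLC7A5) and ENST00000371224 (ALDH18A1). In RefSeq GRCh38.p14 the genes lie at chr20:50190583-50192690 for CEBPB, chr1:28259518-28282491 for SESN2, chr13:29509414-29595688 for SLC7A1, chr16:87830023-87869507 for SLC7A5 and chr10:95605941-95656711 for ALDH18A1. Their promoter windows, 250 bases before to 50 after the annotated start, were searched on both strands for TGATGNAA, the core of the C/EBP-ATF response element. CEBPB has 2 annotated starts, so there were 6 windows. SLC7A1 was the only member with a match, at chr13:29595674-29595681, whose first base lies 8 bases into the transcript. The motif occurs in 3.62% of all 35116 promoter windows. TGACGT, the core of the cAMP response element that bZIP factors bind, was searched after the letters had been seen. It matched 3 times in ALDH18A1 and in no other member, and occurs in 7.98% of all windows. The matches of the 2 motifs do not overlap each other. The sequences below show both sets of matches in capitals, beside the same stretch of SLC7A5, which has neither. They are on the minus strand, 5′ to 3′, at chr13:29595663-29595692 for SLC7A1, and from 94 bases before the start to 6 after it for the others, at chr10:95656706-95656805 for ALDH18A1 and chr16:87869502-87869601 for SLC7A5.
SLC7A1: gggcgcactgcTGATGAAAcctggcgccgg
ALDH18A1: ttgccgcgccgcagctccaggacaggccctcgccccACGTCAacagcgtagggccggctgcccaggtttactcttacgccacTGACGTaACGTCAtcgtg
SLC7A5: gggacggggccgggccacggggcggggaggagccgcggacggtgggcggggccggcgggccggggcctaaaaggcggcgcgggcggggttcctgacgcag

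CEBPB had 40.5 CPM in trans1, 37.4 in trans2, 40.7 in starvation and 23.0 in control, from 245, 277, 377 and 242 reads. Its 3 starved libraries lay together above the control, and their counting intervals did not meet that of the control. SESN2, the member with the fewest reads, had 10.8 CPM in trans1, 16.6 in trans2, 10.9 in starvation and 16.4 in control, from 65, 123, 101 and 172 reads. Its libraries formed a lower pair, trans1 and starvation, and a higher pair, trans2 and control. SLC7A1 had 29.3 CPM in trans1, 40.8 in trans2, 28.1 in starvation and 26.6 in control, from 177, 302, 260 and 279 reads. SLC7A5 had 188 CPM in trans1, 244 in trans2, 186 in starvation and 165 in control, from 1137, 1810, 1724 and 1729 reads. Both transporters were highest in trans2, with intervals that met those of no other library. ALDH18A1 had 37.5 CPM in trans1, 52.8 in trans2, 60.2 in starvation and 90.4 in control, from 227, 391, 557 and 949 reads. It was the only member lower than the control in all 3 starved libraries.

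**Figure D1:**
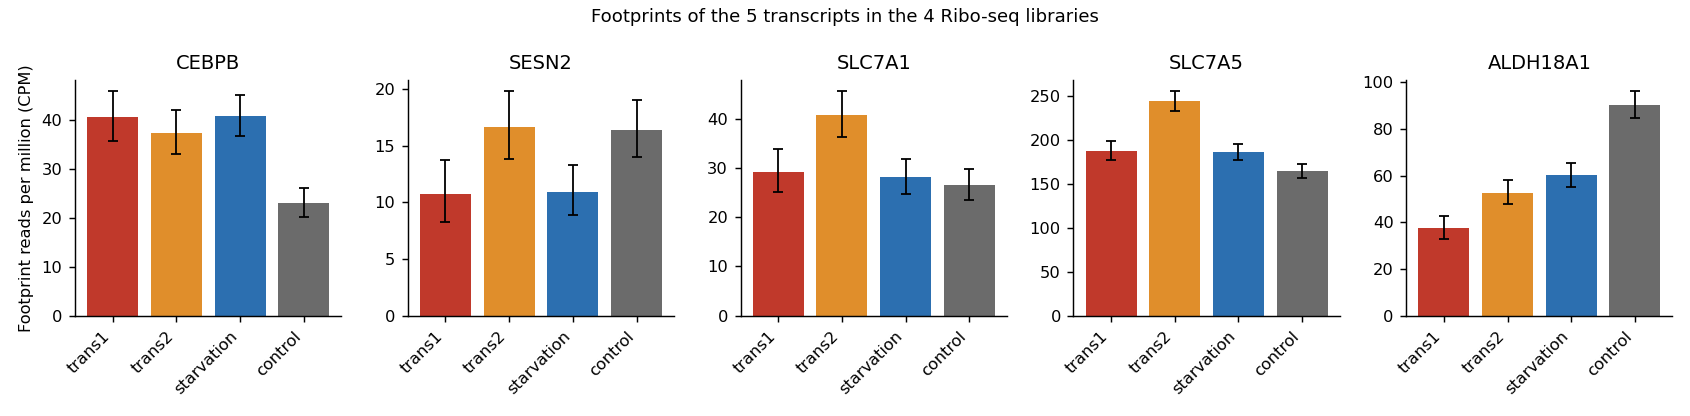
Bars give the footprint CPM of each member in trans1, trans2, starvation and control, with exact 95% Poisson intervals of the reads. CEBPB stands at 37.4 to 40.7 CPM in the 3 starved libraries and at 23.0 in control, while ALDH18A1 is highest in control at 90.4 CPM.

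Per length, SLC7A5 was the most densely covered member, with 123 footprint CPM per kilobase in trans1, 160 in trans2, 122 in starvation and 108 in control. SESN2 was the lowest, with 7.44 CPM per kilobase in trans1, 11.5 in trans2, 7.55 in starvation and 11.3 in control. The order below SLC7A5 changed between libraries. In trans1 CEBPB came second at 38.9 CPM per kilobase, while ALDH18A1 at 15.7 and SLC7A1 at 15.5 had overlapping intervals. In trans2 CEBPB stood at 35.9, and ALDH18A1 at 22.1 and SLC7A1 at 21.5 overlapped again. Under starvation CEBPB stood at 39.1, ahead of ALDH18A1 at 25.2, SLC7A1 at 14.8 and SESN2. In control ALDH18A1 came second instead, at 37.8 CPM per kilobase, ahead of CEBPB at 22.1, SLC7A1 at 14.0 and SESN2.

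Starvation against control asks how starving the cells alters ribosome occupancy of these genes. CEBPB was 1.74-fold higher in starvation, a log2 ratio of 0.80 (0.59 to 1.06). SLC7A5 differed little, at a log2 ratio of 0.18 (0.08 to 0.28), and SLC7A1 less, at 0.08 (-0.17 to 0.33). SESN2 was lower in starvation, at a log2 ratio of -0.54 (-0.95 to -0.22), and so was ALDH18A1, at -0.58 (-0.74 to -0.43). No member reached a 2-fold difference, a size that 4.36% of 10074 transcripts reached, and 1 member, CEBPB, reached 1.5-fold, against 20.1%. Intervals lay above 0 for 2 members and below 0 for 2, against 30.0% of all transcripts above and 31.0% below, so an interval free of 0 is common here. The member median was 0.08 and that of all transcripts -0.0030. The direction of the member median turned to -0.33 in the start window and -0.28 in the stop window. It was -0.42 over the reads of both windows together, without their single highest position. These data hold no RNA-seq of HEK293, so mRNA amount, ribosomes per mRNA and the share of cells that make the mRNA cannot be told apart.

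Trans1 against starvation sets starved cells that had received the trans-RNA beside starved cells without it. No group is labelled as transfected without the trans-RNA. In trans1 and trans2 alike, the trans-RNA and the transfection itself therefore cannot be told apart. ALDH18A1 was lower in trans1, at a log2 ratio of -0.67 (-0.91 to -0.46), with 5.48% of transcripts lower still. The other members lay close to 0. CEBPB had a log2 ratio of -0.0078 (-0.25 to 0.23), SESN2 -0.02 (-0.49 to 0.44), SLC7A1 0.06 (-0.22 to 0.34) and SLC7A5 0.01 (-0.10 to 0.12). No member reached 2-fold, which 2.35% of 10070 transcripts did, and ALDH18A1 alone reached 1.5-fold, against 14.3%. The interval of 1 member lay below 0, as it did for 32.3% of all transcripts, and none lay above, as it did for 18.5%. The member median was -0.0078, against -0.08 over all transcripts, and 0.06 with median-of-ratios scaling.

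Trans2 against starvation gave another picture under the same label. SESN2 was 1.48-fold higher in trans2, a log2 ratio of 0.56 (0.21 to 1.00). Both transporters were higher too, SLC7A1 at a log2 ratio of 0.52 (0.29 to 0.78) and SLC7A5 at 0.39 (0.29 to 0.49). CEBPB stood at -0.12 (-0.35 to 0.10) and ALDH18A1 at -0.19 (-0.38 to -0.00063). No member reached 2-fold or 1.5-fold, which 1.99% and 10.6% of 10077 transcripts did. Intervals of 3 members lay above 0 and that of 1 below, against 27.4% and 21.2% of all transcripts. The member median was 0.39, against 0.04 over all transcripts, and it turned to -0.21 in the stop window.

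**Figure D2:**
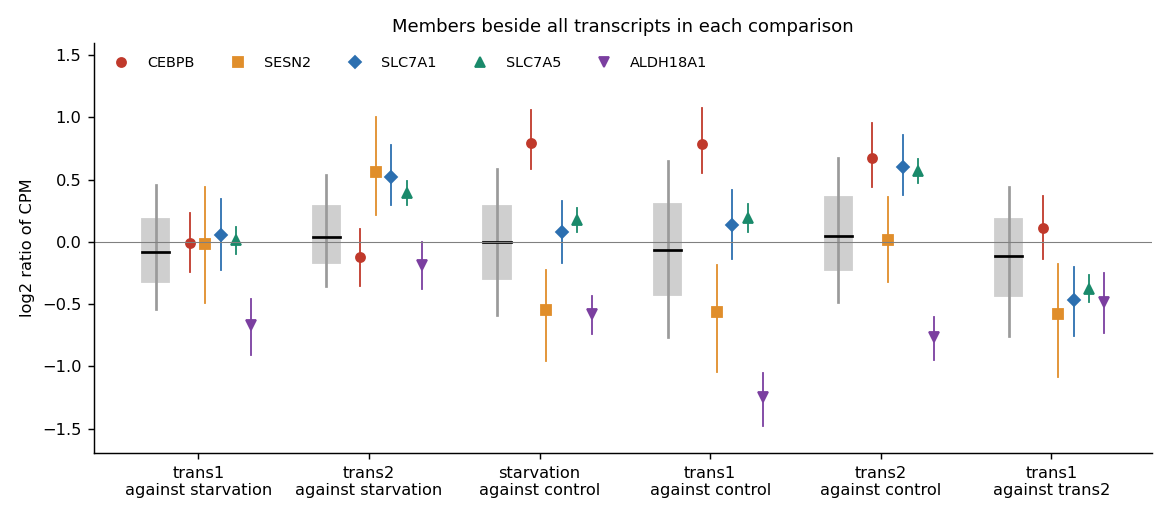
Each member's log2 ratio of CPM with its 95% counting interval is set beside all transcripts of the same comparison (black line, median; grey box, 25th to 75th percentile; grey line, 10th to 90th percentile). CEBPB lies beyond the grey line against control in starvation, trans1 and, only just, trans2, at 0.80, 0.79 and 0.68. ALDH18A1 lies beyond it at -0.67 in trans1 against starvation, and against control at -1.25 in trans1 and -0.76 in trans2. SESN2 lies beyond it in trans2 against starvation, at 0.56.

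Trans1 and trans2 share the control and starvation libraries, so these comparisons repeat the same reference reads. Against control, ALDH18A1 stood at a log2 ratio of -1.25 (-1.48 to -1.06) in trans1 and -0.76 (-0.95 to -0.60) in trans2. In trans1 it was the 1 member past 2-fold, a size that 4.53% of transcripts reached downward and 7.67% either way. In trans2 no member reached 2-fold, against 4.42% of transcripts. At 1.5-fold, 2 members passed in trans1 and 3 in trans2, against 28.4% and 19.9% of transcripts. CEBPB stood at 0.79 (0.55 to 1.08) in trans1 and 0.68 (0.44 to 0.95) in trans2, but its start window alone turned the direction in trans1, at -1.27 (-4.30 to -0.14) from 3 reads in trans1 and 19 in control. SLC7A1 stood at 0.14 (-0.14 to 0.42) in trans1 and 0.60 (0.38 to 0.86) in trans2, and SLC7A5 at 0.19 (0.08 to 0.30) and 0.57 (0.47 to 0.67). In trans1 the stop windows of both turned, at -1.04 (-2.19 to -0.28) for SLC7A1 and -0.72 (-1.09 to -0.39) for SLC7A5. SESN2 stood at -0.56 (-1.04 to -0.19) in trans1 and 0.02 (-0.33 to 0.36) in trans2. Intervals lay above 0 for 2 members in trans1 and 3 in trans2, against 27.0% and 32.6% of transcripts, and below 0 for 2 and 1, against 35.3% and 26.0%. Set directly against trans2, trans1 was lower for SESN2 at -0.58 (-1.08 to -0.18), ALDH18A1 at -0.48 (-0.73 to -0.25), SLC7A1 at -0.46 (-0.75 to -0.21) and SLC7A5 at -0.38 (-0.49 to -0.27). CEBPB was at 0.11 (-0.14 to 0.37), with -1.95 (-5.08 to -0.98) in the start window. These 4 members had intervals below 0, as did 35.9% of all transcripts, and no member lay above 0, as 19.4% did. None reached 2-fold or 1.5-fold, as 5.16% and 22.3% did. The median of all transcripts was itself -0.11 in that comparison, and 0.0012 with median-of-ratios scaling, where the member median was -0.35.

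**Figure D3:**
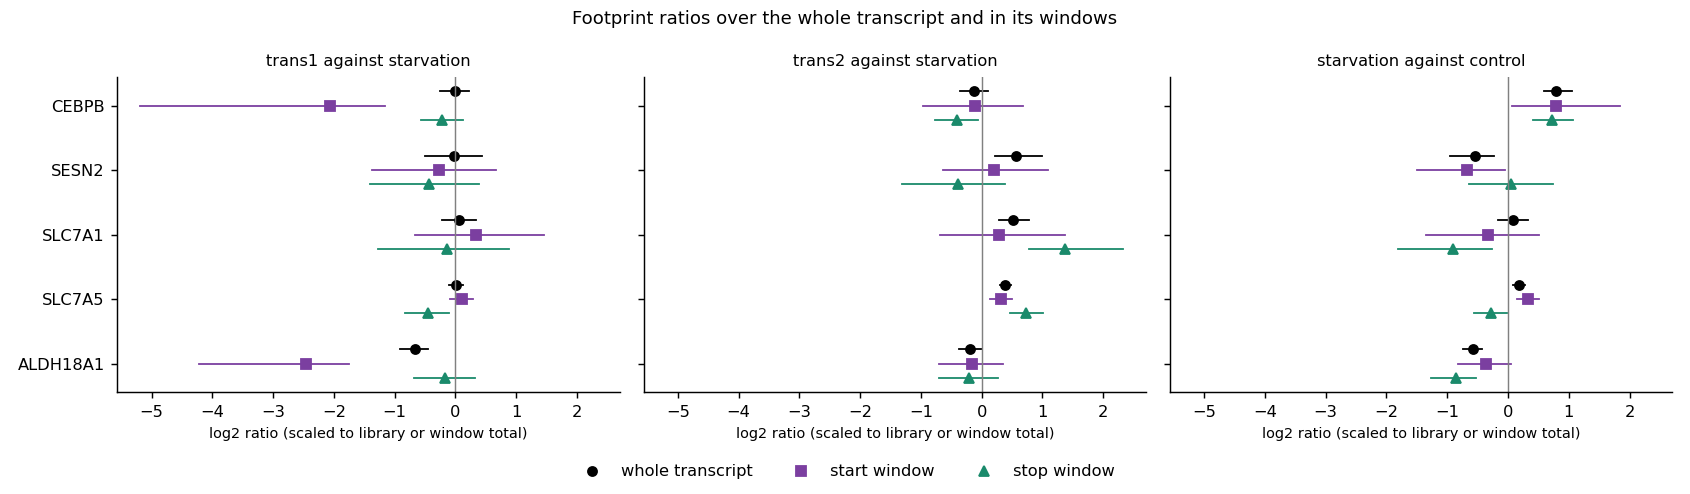
Log2 ratios with 95% counting intervals are shown for the whole transcript (circles), the window around the start codon (squares) and the window around the stop codon (triangles), each scaled to its own total. In trans1 against starvation the start windows of CEBPB and ALDH18A1 lie at -2.07 and -2.46 while their stop windows lie at -0.22 and -0.17.

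Where along the mRNA the footprints lay gave the sharpest differences among the members. The tables resolve single nucleotides in a start window, from 30 nt before to 300 nt after the start codon, and a stop window of the same size. Ratios within a window were scaled to the reads of all transcripts in that window. CEBPB had more reads late than early: its stop window held 44.9% of its reads in trans1, 39.7% in trans2, 51.5% in starvation and 53.7% in control. Its start window held 3 of 245 reads in trans1 (1.22%), 23 of 277 in trans2 (8.30%), 32 of 377 in starvation (8.49%) and 19 of 242 in control (7.85%). The first 100 nt of the coding region held 0 reads in trans1, which allows up to 3.69, against 4 in trans2, 10 in starvation and 8 in control. Trans1 thus stood apart from the other 3 libraries at the 5′ end of CEBPB, while its total of 40.5 CPM was close to the 40.7 CPM of starvation. The log2 ratio of start window reads, trans1 against starvation, was -2.07 (-5.19 to -1.16), and that of stop window reads was -0.22 (-0.57 to 0.12).

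ALDH18A1 too had few early reads in trans1. Its start window held 7 of 227 reads in trans1 (3.08%), 53 of 391 in trans2 (13.6%), 76 of 557 in starvation (13.6%) and 112 of 949 in control (11.8%). The share in trans1 was the lowest and the other 3 were close together. Start window reads gave a log2 ratio of -2.46 (-4.22 to -1.75) for trans1 against starvation, and stop window reads gave -0.17 (-0.68 to 0.32), so the lower total in trans1 was not shared evenly along the transcript. Between the windows, trans1 had 27.5 CPM, trans2 37.4, starvation 42.7 and control 62.0, so the order of the totals held there too. For every member, reads between the windows were taken as the total less the coding reads of both windows. Window shares also count window reads outside the coding region, so the parts need not add up to the total. Over 5495 transcripts of at least 600 nt with at least 100 reads in both libraries, 5.79% had a start window share at least 2-fold lower in trans1 than in starvation. CEBPB was lower than all but 0.346% of them and ALDH18A1 than all but 0.946%. Both were noticed in the values and then described.

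The early reads of ALDH18A1 also moved within the start window. The first 100 nt held 1 read in trans1, 14 in trans2, 3 in starvation and 33 in control, while the third stretch of 100 nt held 4, 22, 50 and 26 reads in the same order. In starvation the later stretch had 2.15 times the mean density of the transcript, and the earlier had 0.129 times. A single position 18 nt before the stop codon held 18 reads in trans1, 9 in trans2, 37 in starvation and 43 in control, which is 7.93%, 2.30%, 6.64% and 4.53% of the transcript's reads. Trans2 had the smallest share at this place.

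**Figure D4:**
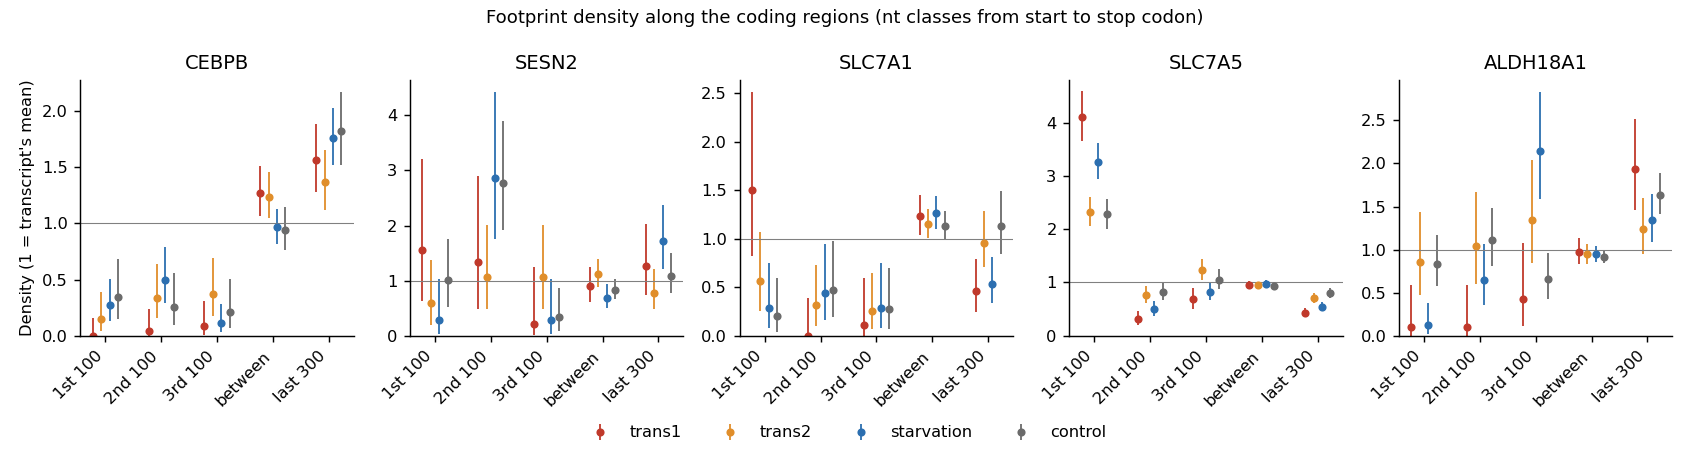
Points give the footprint density of each member in 3 stretches of 100 nt after the start codon, between the windows and in the last 300 nt, relative to the transcript's mean (grey line at 1), with 95% Poisson intervals. SLC7A5 reaches 4.10 times its mean in the first 100 nt in trans1, and CEBPB stays at 0 there in trans1.

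SESN2 reads gathered in the second stretch of 100 nt, which held 6 reads in trans1, 9 in trans2, 20 in starvation and 33 in control. Position 150 alone had 5 reads in trans1, 5 in trans2, 18 in starvation and 18 in control, or 7.69%, 4.07%, 17.8% and 10.5% of the transcript's reads. Starvation had the largest share and trans2 the smallest, and the intervals of trans1 and control overlapped those of all others. The higher SESN2 total of trans2 was made up between the windows, with 10.8 CPM in trans2 and 4.43 in starvation. In the stop window the direction turned: 20 reads in trans2 against 36 in starvation gave a log2 ratio of -0.39 (-1.31 to 0.39). At these depths the stop window ratio could not be told from 0.

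SLC7A1, whose early reads were sparse, had 0 footprints in the 30 nt before the start codon in trans1 and 0 in trans2, 1 in starvation and 7 in control. Its first 100 coding nt held 14 reads in trans1, 9 in trans2, 4 in starvation and 3 in control. Trans1 was highest there, at 7.91% of the transcript's reads, against 1.54% in starvation. Its stop window held 13 reads in trans1, 48 in trans2, 22 in starvation and 50 in control. Stop window reads were higher in trans2 than in starvation, at a log2 ratio of 1.38 (0.78 to 2.33), and lower in starvation than in control, at -0.90 (-1.81 to -0.27). The whole transcript gave 0.52 and 0.08 for the same pairs.

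SLC7A5 had enough reads to read its profile by position. Positions 48, 51 and 57 nt after the start codon, chosen after their values were seen, together held 246 of 1137 reads in trans1, or 21.6% (19.3 to 24.1). They held 152 of 1810 reads in trans2, or 8.40% (7.16 to 9.77), 243 of 1724 in starvation, or 14.1% (12.5 to 15.8), and 154 of 1729 in control, or 8.91% (7.61 to 10.3). Trans1 was highest, starvation next, and trans2 and control overlapped. Without these positions SLC7A5 had 147 CPM in trans1, 224 in trans2, 160 in starvation and 150 in control. Trans2 stood apart as the highest with or without them. Position 54, inside this stretch, was not pooled and was lowest in trans1. It held 1 read in trans1, 16 in trans2, 11 in starvation and 22 in control, or 0.09%, 0.88%, 0.64% and 1.27% of the transcript's reads.

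Other SLC7A5 positions had other orders. Position 87 held 1 read in trans1, 46 in trans2, 16 in starvation and 23 in control, and position 231 held 7, 30, 14 and 46 in the same order. Position 90 nt before the stop codon held 6 reads in trans1, 44 in trans2, 39 in starvation and 29 in control. These 3 were lowest in trans1, whereas position -264, counted from the stop codon, was highest in trans1 by share, with 27 reads in trans1, 7 in trans2, 20 in starvation and 18 in control. Of these positions, 87 alone had a trans1 share interval that met no other. Positions 50, 114 and 225 had their largest share in starvation, with intervals that met those of trans1. The last 300 coding nt held 95 reads in trans1, 250 in trans2, 186 in starvation and 271 in control. The log2 ratio of the stop window, which adds the reads after the stop codon, was -0.44 (-0.82 to -0.10) for trans1 against starvation, 0.73 (0.47 to 1.02) for trans2 against starvation and -0.28 (-0.55 to -0.01) for starvation against control. For starvation against control the stop window ran opposite to the start window, at 0.33 (0.15 to 0.52). For trans1 against starvation the start window, at 0.11 (-0.09 to 0.30), could not be told from 0. From the stop codon on, starvation had 13 reads, against 1 in trans1, 1 in trans2 and 0 in control.

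**Figure D5:**
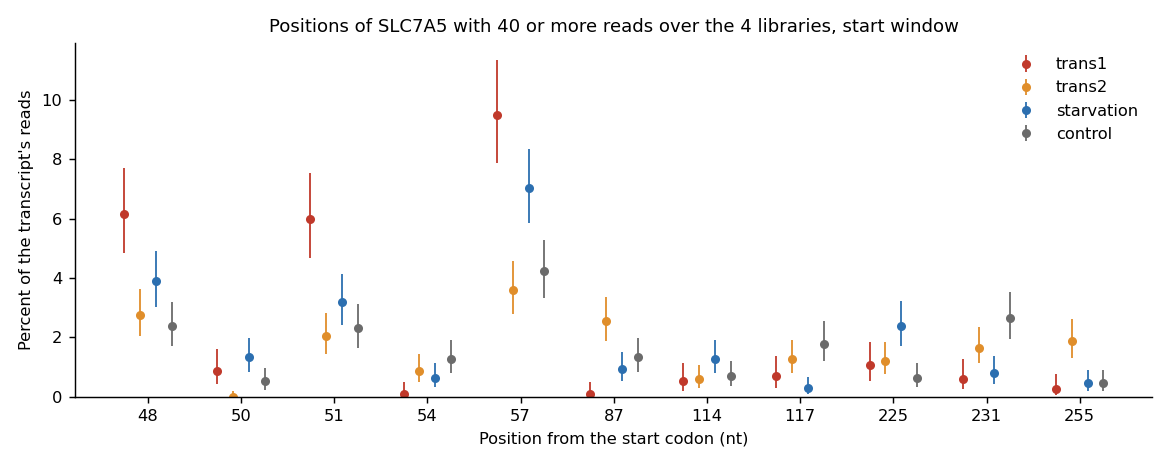
The share of SLC7A5 reads at each start window position with 40 or more reads over the 4 libraries is plotted by library, with exact 95% binomial intervals. At position 57 the share is 9.50% in trans1, 3.59% in trans2, 7.02% in starvation and 4.22% in control.

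Most member footprints kept the reading frame of the coding sequence. In SLC7A5, the deepest member, 92.6% of stop window coding reads were in frame in trans1, 96.0% in trans2, 88.7% in starvation and 90.4% in control. The lowest value over all members, libraries and windows was 67.4%, for the stop window of SLC7A1 in trans2, where 31 of 46 reads were in frame (52.0 to 80.5%).

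The authors' deposited table of open reading frames gives 1 log2 fold change per frame and comparison, with no error, and no source used here states how it was scaled. In the authors' deposited table, the upstream frame of SLC7A1 had a log2 fold change of -0.39 for trans1 against starvation, 0 for trans2 against starvation and -0.93 for starvation against control. That last value was lower than those of all but 9.41% of 6143 upstream frames. The truncated frame of ALDH18A1 in the authors' deposited table stood at -0.22, -0.19 and -0.34 for the same 3 comparisons, and an internal frame at -0.68, -0.25 and -0.86. The medians of all 9417 truncated frames were -0.27, -0.10 and -0.03. For trans1 against starvation the truncated frame of ALDH18A1 was thus not low among its kind, unlike the footprint log2 ratio of -0.67. Such a mismatch was not particular to ALDH18A1. Over 4278 transcripts with at least 10 CPM in either library, coding or truncated frames and footprint ratios had a Spearman correlation of 0.46. Of 56 transcripts with footprints changed at least 2-fold, 41 had the same sign by both routes. For CEBPB, the authors' deposited table lists a frame downstream of the coding region, at -0.37, -0.39 and 0.29. For SLC7A5, the authors' deposited table has a truncated frame at -0.31, 0.05 and 0.0013, and a downstream frame at -0.49, -0.58 and 0.58. The internal frames of SLC7A5 in the authors' deposited table stood at -0.40, -0.42 and -0.28 for one and 0.42, -0.29 and -0.92 for the other. Frames of SESN2 were not among those analysed here. Over all 41748 frames the medians of the authors' deposited table were -0.39, -0.19 and -0.08, beside which the member values are to be read.

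Small RNA peaks mark places where short RNAs matching an mRNA, in sense or antisense, pile up in control cells. The peak lists hold no value under 4 reads, and a gene without a peak may have fewer. SLC7A1 carried the only member peak found in both libraries. Antisense to its coding region, the cap library had 5, 40 and 42 reads at 1827, 1828 and 1829 nt from the start codon, and the total library had 9 reads at 1829 nt. By the recovered length of 1893 nt this is 64 nt before the end of the coding region, inside the stop window. Of all 982 cap antisense peaks in coding regions, 57.9% had a total antisense peak within 2 nt, so a shared place is common for this class. The peak of 42 reads was reached or passed by 14.4% of 1810 cap antisense peaks.

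SESN2 and SLC7A5 had cap library peaks in sense upstream of the coding region, in the 5′ UTR. SESN2 had 39 reads at -324 nt, counted from its start codon. SLC7A5 had 33 and 34 reads at -85 and -83 nt. Of 4521 cap sense peaks, with a median of 6 reads, 9.53% were as high as that of SESN2 or higher, and 11.0% as high as the lower of the SLC7A5 peaks. None had a peak at the same position in the total library, and of all 2791 such 5′ UTR cap peaks 9.06% had a total peak within 2 nt.

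The remaining member peaks were small and found in 1 library each. CEBPB had 10 antisense reads at 487 nt in the coding region and 6 sense reads at 1555 nt in the 3′ UTR, both in the total library. SLC7A5 had 4 antisense reads at 2506 nt in the 3′ UTR in the cap library, and ALDH18A1 had 4 sense reads at 531 nt in the coding region in the total library. Both of the last stand at the floor of the lists.

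Other genes of the same pathways were read from 6 lists, of which only genes with a symbol and recovered reads could be measured. Symbols exist only for transcripts with a small RNA peak, so each measured gene has a peak by selection. The values over all transcripts also cover transcripts without a symbol, as only 2858 of 10078 analysed had one. Of 29 genes of ATF4 and the integrated stress response, 10 were paired and 7 measured, CEBPB and SESN2 among them. The others were HERPUD1 and the eIF2 subunits and kinases EIF2S2, EIF2S3, EIF2AK1 and EIF2AK4. ATF3, DDIT3, TRIB3 and CHAC1 were not measured, so the medians of this list say little of genes that ATF4 switches on. None of the 7 reached 2-fold in trans1 against starvation, trans2 against starvation or starvation against control. Their medians were -0.12, -0.12 and 0.32, against -0.08, 0.04 and -0.0030 over all transcripts. EIF2S2, the beta subunit of eIF2, had 1129 CPM in starvation against 763 in control, a log2 ratio of 0.56. In trans1 all 7 lay below 0 against starvation, as did 58.7% of all transcripts, and 5 of 7 with median-of-ratios scaling, where CEBPB and SESN2 turned to 0.06 and 0.05. HERPUD1, an endoplasmic reticulum stress protein, was lowest at 24.8 CPM in trans1 and 36.7 in starvation (log2 -0.55). EIF2AK4 (GCN2), the kinase that senses uncharged tRNA, had 46.6 CPM in trans1, 45.9 in trans2, 60.4 in starvation and 43.1 in control.

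Among amino acid transporters, 7 of 20 were paired and 6 measured. All 6 lay above 0 in trans2 against starvation, as did 54.6% of all transcripts, with a median of 0.38, and none reached 2-fold there. SLC7A1 and SLC7A5 had the highest ratios of those with at least 10 CPM, ahead of SLC36A1, a lysosomal and plasma membrane carrier, with 14.4 CPM in trans2 and 11.0 in starvation (log2 0.36). In trans1 against starvation 4 of 6 lay above 0, as did 41.3% of all transcripts, with a median of 0.04. SLC38A2 (SNAT2), a transporter of small neutral amino acids known as an ATF4 target, had 90.8 CPM in trans1 against 112 in starvation (log2 -0.30). In starvation against control 1 of 6 was at least 2-fold lower, against 1.88% of all transcripts: SLC7A8 (LAT2), with 16 reads in starvation and 79 in control (log2 -1.64), named after its value was seen. SLC1A5 (ASCT2), a glutamine carrier, had 157 CPM in starvation against 107 in control (log2 0.55).

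Of 26 genes of amino acid synthesis, 6 were paired and 5 measured. All 5 lay below 0 in trans1 against starvation, as did 58.7% of all transcripts, with ALDH18A1 the lowest and GLUL, glutamine synthetase, next at 151 CPM in trans1 and 201 in starvation (log2 -0.41). None reached 2-fold, and the median without ALDH18A1 was -0.22. In trans2 against starvation 1 of 5 lay above 0, against 54.6% of all transcripts. OAT, which makes the same pyrroline-5-carboxylate from ornithine, had 79.0 CPM in trans2 and 95.3 in starvation (log2 -0.27). In starvation against control ALDH18A1 was again the lowest, while PSPH, the last enzyme of serine synthesis, had 51.7 CPM in starvation and 43.6 in control (log2 0.24).

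Amino acid sensing by mTORC1 had 14 of 35 genes paired and 9 measured, and none reached 2-fold in these 3 comparisons. RPTOR, the scaffold of mTORC1, had 20.2 CPM in trans2, 12.1 in starvation and 22.9 in control. The log2 ratio of RPTOR was 0.70 for trans2 against starvation and -0.86 for starvation against control. The relatives of SESN2 are given as well, although the rule for named genes does not pick them in this comparison. SESN3 had 30.6 CPM in trans2 and 37.3 in starvation (log2 -0.28), and SESN1 had 25.4 and 26.5 CPM in these libraries (log2 -0.06).

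C/EBP and partner bZIP factors had 13 of 35 genes paired and 10 measured. The list was chosen with earlier results of these data known, so its counts describe these libraries and test nothing. In trans1 against starvation 3 of 10 were at least 2-fold higher, against 1.23% of all transcripts, and CEBPB was not among them. They were AP-1 subunits: FOSL1 had 53.4 CPM in trans1 and 25.2 in starvation (log2 1.06), FOSL2 had 25.1 and 11.8 CPM (log2 1.03) and JUNB had 13.6 and 5.19 CPM (log2 1.23). In trans2 against starvation 1 of 10 was at least 2-fold higher, against 1.80% of all transcripts. This was FOSL2, with 25.8 CPM in trans2 (log2 1.07), while JUN had 157 CPM in trans2 and 90.5 in starvation (log2 0.79). In starvation against control CEBPB was second in size after DBP, which had 6.59 CPM in starvation and 12.3 in control (log2 -0.81), and ahead of FOSL1, at 25.2 and 14.1 CPM (log2 0.79).

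Of 20 aminoacyl-tRNA synthetases, which charge tRNAs with amino acids, 10 were paired and 8 measured. RARS1, for arginine, had 193 CPM in trans2, 71.9 in starvation and 116 in control. Its log2 ratio was 1.41 for trans2 against starvation, -0.68 for starvation against control and 0.73 for trans2 against control. RARS1 was the 1 of 8 at least 2-fold higher in trans2 than in starvation, against 1.80% of all transcripts. The medians were -0.16 for trans1 against starvation, -0.12 for trans2 against starvation and -0.12 for starvation against control. In the same order 1, 2 and 3 of 8 lay above 0, against 41.3%, 54.6% and 49.7% of all transcripts.

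The 5 members did not follow 1 shared pattern over the 4 libraries. As a measure of likeness, the Euclidean distance between log2 CPM profiles, each centred on its own mean over the 4 libraries, was taken. The closest pair of members was SLC7A1 and SLC7A5, at a distance of 0.10, and the farthest was CEBPB and ALDH18A1, at 1.49. Among 2693 named transcripts, the profile nearest to CEBPB was that of STX3 (0.10), followed by SPRED1 (0.11) and CFAP97 (0.14). Nearest to SESN2 were NUDT22 (0.03), RABGAP1L (0.06) and TMEM161A (0.07). Nearest to SLC7A1 were CUEDC1 (0.04), HOMEZ (0.05) and CTDSP1 (0.06), and nearest to SLC7A5 were HOMEZ (0.08), ENDOV (0.09) and SS18L1 (0.09). ALDH18A1 was nearest to PSMB2 (0.08), ZFYVE16 (0.11) and NLN (0.13). With 4 libraries, such distances describe these profiles and no more.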

How the data were processed

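The submitters' processing notes list STAR 2.7.10a, Bowtie 1.2.3, cutadapt 2.8 and bcl2fastq 2.20.0.422 with no role or order, and GRCm39 as the only build, while the Ribo-seq and peak files carry human transcript IDs. Each deposited density value is a signal per nucleotide divided by the transcript's mean, per the file headers and values. The authors' fold values are log2 fold changes per open reading frame. In the deposited peak lists, each value is a count of reads at 1 position.

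Density values are whole multiples of a step, the length divided by the transcript's reads, so reads could be worked back where 2 or more libraries had a step and reads at 8 or more positions. Where the length found this way is a fraction of the true one, reads are too low by the same factor in every library. Of 8097 transcripts of at least 600 nt, 65 had more window reads than total. No source used here states whether totals include reads outside the coding region. Of 10114 such transcripts, 10078 appear in every library and were analysed. Reads were scaled to 1000000 (CPM), and the measure was log2((a + 1)/(b + 1)) for transcripts with at least 1 CPM in either library. Window ratios used the same formula, scaled to the window's reads over all transcripts. Intervals are exact 95% ones without a pseudocount: Poisson for reads, Clopper-Pearson for shares and ratios of reads. Median-of-ratios scaling of the list counts was added after seeing the data. Recovery was tested on simulated reads spread evenly along transcripts, which checked ratios between libraries and not absolute reads. The 2-fold rule was tested on simulated reads with counting noise only. Python 3.11.15, NumPy 2.4.6, pandas 2.3.3 and SciPy 1.17.1 were used.

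Symbols came from the peak lists, which name 2858 of the analysed transcripts, and promoters from RefSeq GRCh38.p14, where all 5 members matched. Genes named from lists were up to 3 per list and comparison with the largest change among those with at least 10 CPM in a library; SLC7A8, SESN1 and SESN3 were named beside it after their values were seen. The members and lists were chosen with earlier results of these data known. The mouse liver libraries and the authors' frame caller output were not used here. No table used pairs a transcript with ATF4, so the targeted gene was not checked.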

Additional observations from a re-analysis of the deposited data

How the results depend on the processing

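Of 30 member ratios (5 genes, 6 comparisons), none changed sign with a pseudocount of 0.1 or 5, and 3 did with median-of-ratios scaling, all near 0, which put the member median of trans1 against starvation at 0.06. Restricting reads to the start window changed 6 signs, to the stop window 10, and to both windows together without their single highest position 7. The member median for starvation against control was then -0.33, -0.28 and -0.42. For trans2 against starvation it was 0.20, -0.21 and 0.16. For trans1 against control it was -0.94, -0.72 and -0.50, and for trans2 against control -0.048, 0.32 and 0.32. Trans1 against starvation gave -0.27 in the start window, and trans1 against trans2 gave -0.038 in the stop window. Fewer reads enter each window, 3 at the least.

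Members past 2-fold in the start window were 2 for trans1 against starvation, 2 for trans1 against control and 2 for trans1 against trans2, sizes that 13.4%, 21.0% and 19.8% of all transcripts reached. In the stop window they were 1 for trans2 against starvation, 2 for trans1 against control, 1 for trans2 against control and 2 for trans1 against trans2, against 12.0%, 22.9%, 12.3% and 21.4% of all transcripts. A 1.5-fold rule gave 1 for starvation against control, 1 for trans1 against starvation, 2 for trans1 against control and 3 for trans2 against control. Peaks of at least 10 reads numbered 6 of 11, with neighbouring positions of SLC7A1 (1828 and 1829 nt) and SLC7A5 (-85 and -83 nt) counted apart. Of 2424 total antisense peaks, 42.7% had at least 10 reads. This share was not taken for the other lists, so the count is not read as a result about the members. No paired analysis was possible because each group has 1 library and no result comes from a test; no library could be left out for the same reason.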
